A study of Leucoraja erinaceus with 6 samples.

Results

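Proteins that are misfolded, damaged or no longer needed are handled by chaperones, the ubiquitin system and the proteasome. The genes of these systems were taken as the rows of a transcript table whose protein description contained proteasome, ubiquitin, heat shock, chaperonin, DnaJ or peptidylprolyl, and did not contain ribosomal protein. They numbered 94 of 7080 rows, and 1577 rows carried a description. By the words of their descriptions they fell into 26 proteasome rows, 37 rows of the ubiquitin system and 31 rows of chaperones and prolyl isomerases.

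The rows were measured in the little skate (Leucoraja erinaceus), a cartilaginous fish whose large pectoral fins are driven by spinal motor neurons. RNA came from wild type spinal cord at stages 30 to 31, from cells sorted by hand. The groups were pectoral fin motor neurons, with 3 libraries numbered 1, 2 and 3, and tail spinal cord cells, with 3 numbered 1, 2 and 4. Pectoral and tail samples differ in the kind of cell and in the level along the body axis, and these cannot be told apart. No allele, transgene or agent is named for either group, and the labels do not say whether replicates are separate embryos, so each p-value reflects only how far these libraries differ among themselves.

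As background, ubiquitin is passed from an activating enzyme (E1) to a conjugating enzyme (E2) and, with a ligase (E3), onto a substrate. Chains of ubiquitin direct many substrates to the 26S proteasome, in which ATPases of the regulatory particle unfold the protein and feed it into a barrel of alpha and beta subunits that cuts it, while deubiquitinases take ubiquitin off again. HSP70 proteins with their DnaJ partners, HSP90 and the ring-shaped chaperonins fold proteins and keep them soluble. Neurons do not divide and cannot dilute damaged protein by division, and protein quality control is widely studied in motor neurons because it fails in several of their diseases.

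Values are TPM, a transcript level scaled for length and for the library total, so that levels of different rows can be compared. The labels were checked with motor neuron transcription factors. ISL1 stood at 1.63, 1.22 and 4.81 TPM in the pectoral samples, against 0.249, 0.0563 and 0 TPM in the tail samples (values here and below in the order of the replicate numbers). ISL2 also stood above all tail libraries in each pectoral library (exact two-sided permutation p = 0.1 for each gene, the smallest that 3 libraries against 3 allow). The cholinergic genes CHAT and SLC18A3 overlapped between the groups. Markers of progenitors and radial glia summed to 72.7 to 115 TPM in pectoral libraries and 22.7 to 54.9 TPM in tail libraries. All 5 listed markers had a row, and the sum was carried by ID4 and FABP7, whose means were higher in pectoral libraries. SOX2, SOX9 and PAX6 ran the other way, though their groups overlapped. SOX2 stood at 2.85, 0 and 0.439 TPM in the pectoral samples, against 13.98, 5.98 and 0 TPM in the tail samples, and SOX9 at 2.14, 0.382 and 0.134 TPM in the pectoral samples, against 6.95, 19.4 and 0 TPM in the tail samples. Those of dividing cells, 3 of 3 with a row, summed to 1.62 to 12.1 TPM in pectoral and 11.9 to 40.9 TPM in tail libraries. The tail sums were nearly all CCND1, at 9.59, 0 and 6.66 TPM in the pectoral samples, against 11.9, 40.3 and 37.2 TPM in the tail samples. MCM7 stood at 1.32, 1.62 and 1.07 TPM in the pectoral samples and was listed at 0 in every tail sample, and PCNA was at most 1.17 TPM in any pectoral sample, against 0.601 TPM in any tail sample. No described row was found for MNX1 or the fixed markers of oligodendrocytes and other glia, muscle, blood and vessels, which were not analysed here. The part of these cells in the results was not tested, and in such bulk samples fewer cells of a type and less RNA per cell cannot be told apart.

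The libraries were uneven. In pectoral replicate 1 only 5 of 7080 rows were listed at 0, against 1051 to 3552 in the other 5 libraries, with the most in tail replicate 4. The rows of pectoral replicate 1 also summed to 50000 TPM. Whether rows were chosen or values rescaled on that library is not known, so counts at 0 do not measure a difference between the groups. Tail replicate 1 had the highest median-ratio size factor, 2.16, against 0.786 to 1.12 in the other 5 libraries. Of the 94 rows, 0 to 18 were listed at 0 in a pectoral library and 7 to 32 in a tail library. In all, 49 of the 94 were above 0 in every library, as were 637 of the 1577 described rows and 2321 of all 7080 rows. An exact 0 in a table without read counts may be a failed estimate, so it is given as listed at 0, and read depth is unknown.

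The 94 rows together held under 1% of the deposited TPM in every library. They summed to 431 ± 38.4 TPM in the pectoral samples, against 546 ± 168 TPM in the tail samples (SD, n = 3 each). As a share of the deposited total this was 0.774 ± 0.0861% in pectoral and 0.895 ± 0.0803% in tail libraries, with overlapping ranges of 0.683% to 0.854% (pectoral) and 0.828% to 0.984% (tail). Chaperones made up the largest part of this, with 0.451 ± 0.0626% in pectoral and 0.521 ± 0.0963% in tail libraries. The proteasome rows held 0.139 ± 0.0533% in pectoral and 0.159 ± 0.0434% in tail libraries. The ubiquitin system held 0.184 ± 0.0696% in pectoral and 0.215 ± 0.0461% in tail libraries. In each of the 3 classes the mean was higher in tail libraries and the groups overlapped. The chaperone rows were also the highest one by one, with a median over rows of 5.29 TPM. This was 2.72 TPM for proteasome rows and 1.74 TPM for rows of the ubiquitin system. It was 2.10 TPM over the described rows, from which all members come, and 1.65 TPM over the whole table.

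**Figure D1:**
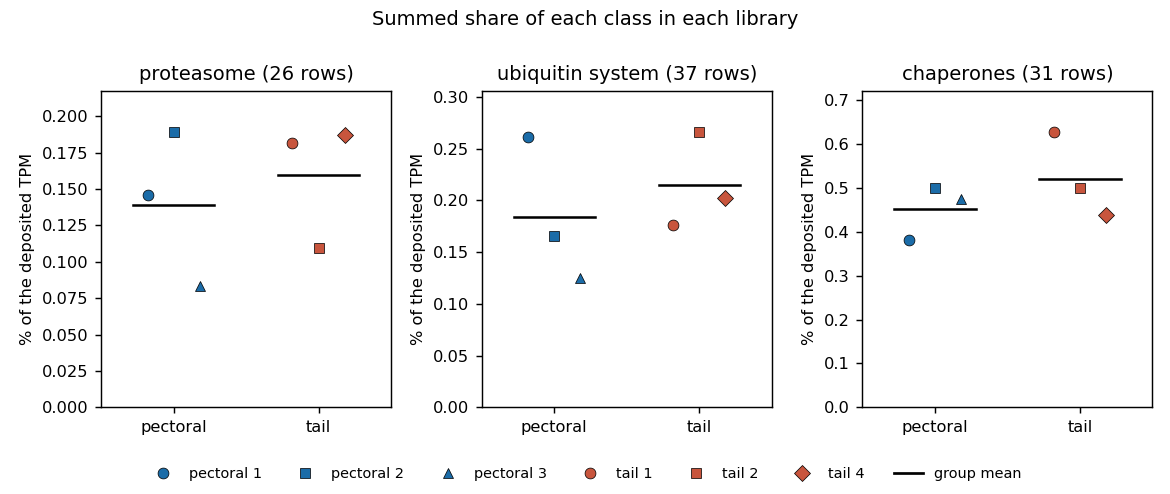
Share of each library's deposited TPM held by the proteasome, ubiquitin system and chaperone rows (y axis, %), with 1 point per library, pectoral left of tail, and a line at the group mean. In every class the 3 pectoral and 3 tail points overlap, and the tail mean is the higher one (0.521% against 0.451% in pectoral libraries for chaperones).

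No member row passed the test between pectoral fin motor neurons and tail spinal cord cells. Of the 94 rows, 61 had 1 TPM or more in 3 or more of the 6 libraries and were tested with limma on log2(TPM + 1) together with all 3752 such rows. Each fold change is the pectoral mean of log2(TPM + 1) minus the tail mean. At an adjusted p under 0.05, 0 of 61 passed in either direction, where 0.08% of all tested rows did, 0.0533% higher in pectoral and 0.0267% higher in tail libraries. At an unadjusted p under 0.05 in limma, 2 of 61 were higher in pectoral and 0 higher in tail libraries, where 3.09% and 3.94% of all tested rows were. These counts of members were 0 and 0 with no filter, and 2 and 4 with array weights. The matching shares of all tested rows were not computed for these settings, so the counts are no result about the members. With array weights more of all tested rows passed at an adjusted p under 0.05 in limma, 0.693% against 0.08%, and 0 members did. The 2 rows of the main fit, HSPA12B and PIN4, had passed the filter through the pectoral libraries alone. The fold was positive in 29 and negative in 32 members. The median log2 fold change over the 61 members was -0.18, as it was over all tested rows. Median-ratio scaling moved both, to 0.07 over members and 0.08 over all tested rows, so folds near these values change sign with the scaling. Folds of the members ran from -1.74 to 1.99.

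**Figure D2:**
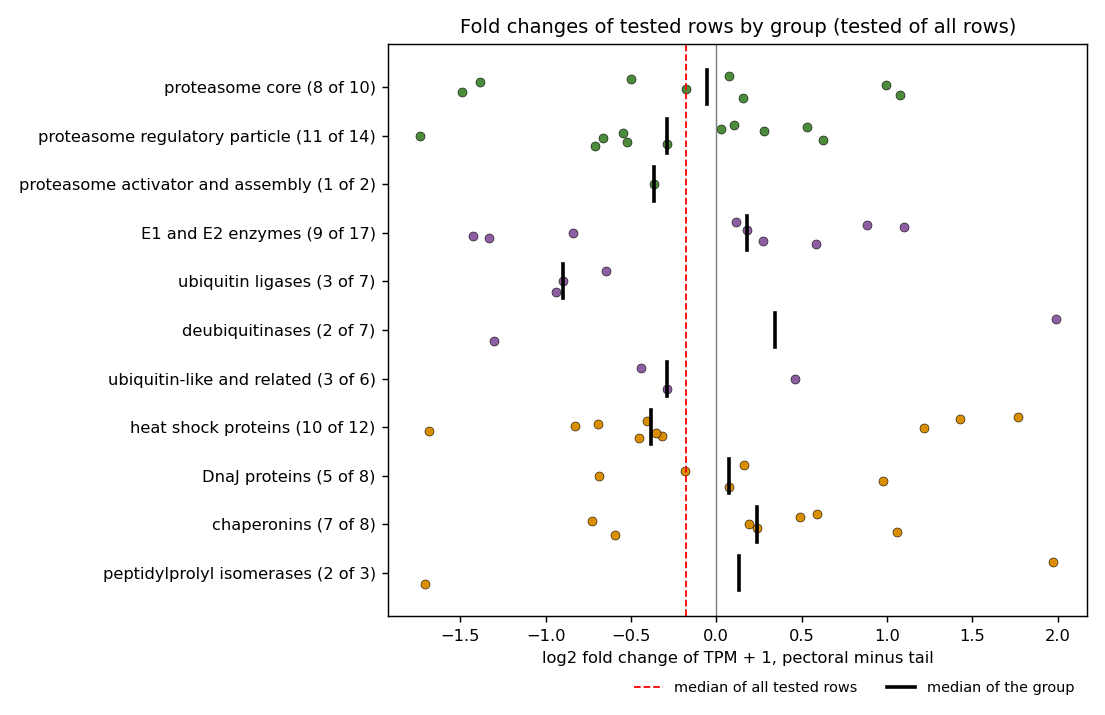
Log2 fold change of TPM + 1, pectoral minus tail (x axis), of each of the 61 tested rows (points) in 11 groups of members, with the group median (black bar) and the median of all tested rows (dashed line, -0.18). Points of most groups lie on both sides of 0; the 3 ubiquitin ligases all lie below it, and none of the points passed the test.

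The core of the proteasome was represented by 10 subunits, of which 8 were tested, with 4 folds positive, 4 negative and a median of -0.053. PSMA4, a subunit of the alpha ring through which substrates enter, stood at 2.95, 9.44 and 3.21 TPM in the pectoral samples, against 10.3, 1.24 and 3.98 TPM in the tail samples, and these ranges overlapped. PSMB7, which carries the trypsin-like cutting site, stood at 3.87, 7.49 and 7.33 TPM in the pectoral samples, against 3.07, 7.12 and 0.109 TPM in the tail samples (log2 fold change 1.08, SE 1.02, adjusted p in limma = 0.89). The fold of PSMB7 was 0.29 without tail replicate 4, the library in which PSMB7 was lowest.

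A pair of core subunits was lower in every pectoral library than in any tail library, as were 7.6% of all tested rows. PSMB1, a beta subunit without a cutting site, stood at 2.23, 0.758 and 2.20 TPM in the pectoral samples, against 6.17, 5.06 and 6.46 TPM in the tail samples. That is 1.73 ± 0.841 TPM (pectoral) against 5.90 ± 0.740 TPM (tail), SD with n = 3 each (log2 fold change -1.39, SE 0.99, adjusted p in limma = 0.87). PSMA8, which in mammals replaces a related alpha subunit in the testis, stood at 3.38, 2.60 and 0.667 TPM in the pectoral samples, against 5.77, 7.87 and 8.70 TPM in the tail samples. It averaged 2.22 ± 1.397 TPM (pectoral) against 7.45 ± 1.51 TPM (tail; log2 fold change -1.49, SE 0.98, adjusted p in limma = 0.84). After median-ratio scaling the groups of PSMB1 stayed apart and those of PSMA8 overlapped. No row described as the related subunit PSMA7 was among the members, and the name PSMA8 rests on the closest described protein.

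Other core subunits held high and low libraries in both groups. PSMA5 stood at 10.6, 6.71 and 0.00314 TPM in the pectoral samples, against 8.17, 0.235 and 0 TPM in the tail samples. PSMB2 stood at 3.90, 0.419 and 7.44 TPM in the pectoral samples, against 9.31, 7.29 and 0 TPM in the tail samples. The subunits of 1 barrel are assembled in equal numbers, while their transcript levels differed widely within a library. In pectoral replicate 3, for example, PSMB2 and PSMB7 were above 7 TPM while PSMA1, PSMA2, PSMA3 and PSMA5 were at 0 to 0.378 TPM.

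The regulatory particle had 14 rows, of which 11 were tested, with 5 folds positive, 6 negative and a median of -0.29. PSMD12, a scaffold of the lid, stood at 1.68, 9.89 and 4.20 TPM in the pectoral samples, against 19.4, 1.08 and 14.7 TPM in the tail samples, so tail replicates 1 and 4 were highest and tail replicate 2 lowest. PSMD4, a receptor for ubiquitin chains, stood at 1.06, 21.3 and 2.70 TPM in the pectoral samples, against 12.3, 2.13 and 6.40 TPM in the tail samples. PSMC4, one of the ATPases, stood at 12.3, 4.235 and 0.885 TPM in the pectoral samples, against 7.61, 2.51 and 11.9 TPM in the tail samples. None of the 3 separated the groups, and their folds lay between -0.71 and -0.29, with standard errors of 1.01 to 1.04 (adjusted p in limma from 0.91 to 0.98).

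Another ATPase row, PSMC1b, had the most negative fold of all members. It stood at 0.838, 0.319 and 0.394 TPM in the pectoral samples, against 1.37, 1.08 and 24.2 TPM in the tail samples (log2 fold change -1.74, SE 1.05, adjusted p in limma = 0.84). PSMC1b passed the filter through the tail libraries alone. Tail replicate 4 held 85.8% of its TPM over the 6 libraries, and the fold was -0.57 without it. PSMC1a, which was not tested, lay on the same Trinity gene, a cluster of contigs that the assembler treats as 1 gene. The pair summed to 1.31, 0.753 and 0.525 TPM in the pectoral samples, against 2.37, 1.16 and 24.2 TPM in the tail samples. These sums overlapped between the groups. PSMC6 stood at 1.44, 0.996 and 0.907 TPM in the pectoral samples, against 0.474, 0 and 0.671 TPM in the tail samples. It was higher in every pectoral library and too low to be tested.

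**Figure D3:**
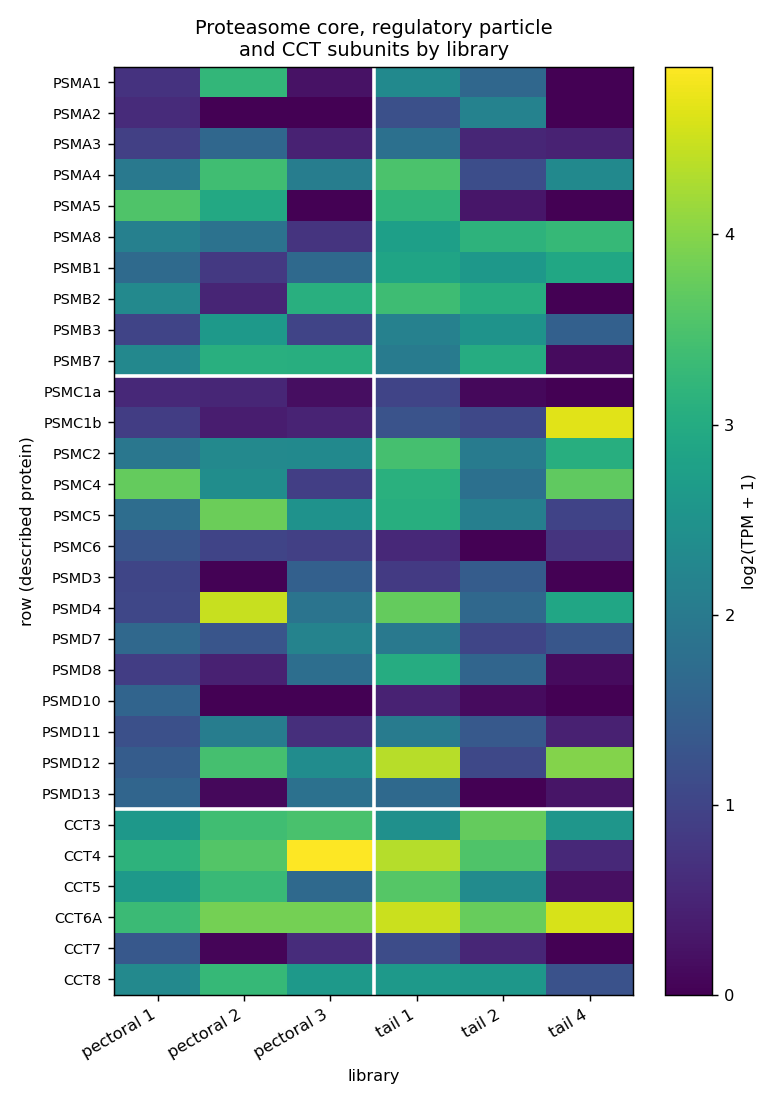
Level of each proteasome core subunit (top block), regulatory particle subunit (middle block) and chaperonin CCT subunit (bottom block) in the 6 libraries, as log2(TPM + 1) in colour, with pectoral libraries left of the white line and tail libraries right of it. Subunits of 1 complex differ in which library is highest. Tail replicate 4 is dark for many proteasome rows but bright for others, among them PSMC1b (24.2 TPM), PSMD12 (14.7 TPM) and PSMC4 (11.9 TPM).

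Of the proteasome's helpers, POMP, which assists the assembly of the core, stood at 2.44, 2.01 and 0.789 TPM in the pectoral samples, against 2.95, 4.14 and 0.948 TPM in the tail samples (log2 fold change -0.37, SE 1.002, adjusted p in limma = 0.97). PSME1, a subunit of an alternative cap, stood at 8.19, 0 and 0.404 TPM in the pectoral samples, against 1.83, 0.0461 and 0 TPM in the tail samples and was not tested. Both overlapped.

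Enzymes that activate and conjugate ubiquitin and its relatives made up 17 rows, of which 9 were tested, with 6 folds positive, 3 negative and a median of 0.18. UBE2D2, an E2 that works with many ligases, was the highest of them at 55.2, 17.2 and 8.34 TPM in the pectoral samples, against 25.8, 9.98 and 8.61 TPM in the tail samples. Its log2 fold change was 0.59 (SE 0.89, adjusted p in limma = 0.91), and -0.12 without pectoral replicate 1. A second row, UBE2D2-like, had this description with the word like added. It lay on the same Trinity gene. UBE2D2-like stood at 0.844, 0 and 1.81 TPM in the pectoral samples and was at 0 in each tail sample. UBE2D4 stood at 1.95, 3.182 and 2.84 TPM in the pectoral samples, against 2.54, 0.358 and 0 TPM in the tail samples. As deposited, the 4 UBE2D rows together summed to 17.6 to 58.7 TPM in pectoral and 10.2 to 29.2 TPM in tail libraries, which overlapped. Only tail replicate 1 reached into the pectoral range. It had the highest median-ratio size factor, 2.16, and the sums were not scaled, so the overlap may depend on the scaling.

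UBE2H stood at 3.78, 6.93 and 8.06 TPM in the pectoral samples, against 24.2, 6.74 and 0 TPM in the tail samples, so that tail replicates 1 and 4 lay at opposite ends. UBE2Ia, an E2 that attaches the ubiquitin relative SUMO, stood at 1.48, 4.37 and 0.0192 TPM in the pectoral samples, against 7.88, 23.2 and 0.00932 TPM in the tail samples (log2 fold change -1.33, SE 1.13, adjusted p in limma = 0.87). UBE2A, which is known for modifying histone H2B, stood at 1.07, 1.13 and 0.0194 TPM in the pectoral samples, against 8.88, 7.78 and 0 TPM in the tail samples. For both, tail replicates 1 and 2 were above every pectoral library while tail replicate 4 was near or at 0. UBE2C and UBE2S, E2 enzymes of the complex that drives exit from mitosis, reached 1 TPM in too few libraries to be tested. UBE2C stood at 1.42, 0 and 0 TPM in the pectoral samples, against 0.115, 8.93 and 0 TPM in the tail samples, so that tail replicate 2 held most of it. The only E1 row was UBA2, described as an activating enzyme of ubiquitin-like modifiers, and no row was described as an E1 of ubiquitin itself. UBA2 stood at 6.31, 0 and 0 TPM in the pectoral samples, against 0.931, 0 and 0 TPM in the tail samples.

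The ubiquitin ligases were the 1 group of the 11 whose summed TPM did not overlap between pectoral and tail libraries. The 7 rows summed to 4.32 to 15.6 TPM in pectoral libraries and 15.8 to 29.1 TPM in tail libraries, or 0.0192 ± 0.00986% in pectoral against 0.0348 ± 0.00654% in tail libraries of the deposited total (SD, n = 3 each). This was noted after the values were seen and was given no test. The gap was small, and after median-ratio scaling, also chosen after seeing the data, the sums of 4.70 to 17.03 in pectoral and 13.5 to 23.3 in tail libraries overlapped. PELI2, a pellino protein known from Toll-like receptor signalling, had the highest mean of them, although ARIH1-like was higher in tail replicate 4. PELI2 stood at 4.83, 3.98 and 6.53 TPM in the pectoral samples, against 14.7, 10.2 and 7.79 TPM in the tail samples. It averaged 5.11 ± 1.30 TPM (pectoral) against 10.9 ± 3.48 TPM (tail), lower in every pectoral library (log2 fold change -0.94, SE 0.92, adjusted p in limma = 0.89), and its groups overlapped after median-ratio scaling.

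Of the related ligases, PELI1 stood at 1.43, 0 and 1.89 TPM in the pectoral samples, against 2.16, 5.30 and 0.356 TPM in the tail samples (log2 fold change -0.65, SE 0.93, adjusted p in limma = 0.91). ARIH1-like, which acts beside cullin ligases, stood at 0.548, 0 and 3.17 TPM in the pectoral samples, against 2.55, 0.0533 and 10.1 TPM in the tail samples (log2 fold change -0.90, SE 1.01, adjusted p in limma = 0.90, and -0.056 without tail replicate 4). The 3 tested ligases all had negative folds, as did 2120 of all 3752 tested rows. Over all 7 ligase rows the mean was higher in pectoral libraries for 3 and in tail libraries for 4. The median fold of the group was -0.90 over the 3 tested rows and -0.050 with no filter. The other 4 ligases, RBX1, MIB1, MUL1 and G2E3, reached 1 TPM in too few libraries to be tested. MIB1, which acts on Notch ligands, had a higher undescribed row on its Trinity gene. The pair summed to 3.55, 2.07 and 0.0441 TPM in the pectoral samples, against 11.3, 3.05 and 0 TPM in the tail samples.

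Among 7 deubiquitinase rows only USP33 and USP30 were tested, and their folds had opposite signs. USP33, with the highest fold of all members, stood at 14.8, 12.2 and 1.14 TPM in the pectoral samples, against 0.351, 4.22 and 0.0153 TPM in the tail samples (log2 fold change 1.99, SE 1.07, adjusted p in limma = 0.77). Pectoral replicates 1 and 2 were above all tail libraries and pectoral replicate 3 lay among them. USP30, which sits on mitochondria, stood at 1.80, 0.737 and 3.52 TPM in the pectoral samples, against 2.89, 0.349 and 61.8 TPM in the tail samples. Tail replicate 4 held 86.9% of the TPM of USP30, and its fold of -1.30 (SE 1.149, adjusted p in limma = 0.89) was 0.29 without that library. UCHL1, an abundant protein of mature neurons, stood at only 1.53, 6.11 and 0.0853 TPM in the pectoral samples, against 0.271, 0 and 0 TPM in the tail samples and was not tested.

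Of the 6 ubiquitin-like and related rows, SUMO3 stood at 2.79, 8.22 and 9.64 TPM in the pectoral samples, against 8.03, 18.4 and 2.87 TPM in the tail samples. SUMO2 stood at 0.559, 2.63 and 2.06 TPM in the pectoral samples, against 2.79, 5.73 and 0.700 TPM in the tail samples. In both rows pectoral replicate 1 was the lowest of all libraries and tail replicate 2 the highest. These 2 rows are contigs of 1 Trinity gene, so their values are not independent of each other. UBLCP1, a phosphatase that acts on the proteasome, stood at 1.12, 3.88 and 5.05 TPM in the pectoral samples, against 1.57, 3.85 and 0.920 TPM in the tail samples. The 3 folds lay between -0.44 and 0.46, with standard errors of 0.96 to 1.02 (adjusted p in limma from 0.95 to 0.98).

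The heat shock proteins held the highest rows of the set. HSP90AB1, a cytosolic chaperone of kinases and receptors, ranked 47 of 7080 rows by mean level and stood at 24.5, 36.4 and 38.4 TPM in the pectoral samples, against 82.3, 43.8 and 24.8 TPM in the tail samples. It averaged 33.1 ± 7.55 TPM (pectoral) against 50.3 ± 29.3 TPM (tail), SD with n = 3 each (log2 fold change -0.45, SE 0.75, adjusted p in limma = 0.92). Its stress-inducible relative HSP90AA1 stood at 27.9, 28.05 and 26.6 TPM in the pectoral samples, against 49.7, 19.1 and 46.5 TPM in the tail samples. The pectoral libraries were close to each other, and the tail libraries lay on both sides of them.

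HSP90B1, the HSP90 of the endoplasmic reticulum, stood at 7.52, 1.20 and 6.06 TPM in the pectoral samples, against 10.1, 14.7 and 2.23 TPM in the tail samples. The 3 HSP90 rows all had negative folds as deposited, with a median of -0.45, but with quantile scaling those of HSP90AB1 and HSP90AA1 were 0.019 and 0.10. HSP90AA1 and HSP90AB1 are contigs of 1 Trinity gene, so reads could have been split between them. Their sum was 52.4, 64.5 and 65.0 TPM in the pectoral samples, against 132, 62.9 and 71.3 TPM in the tail samples. As deposited, tail replicate 1 was the highest. It was also the library with the highest median-ratio size factor, 2.16, and the sums were not scaled.

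HSPA8, the constitutive HSP70 of the cytosol, stood at 20.5, 34.3 and 55.1 TPM in the pectoral samples, against 53.4, 50.6 and 28.3 TPM in the tail samples. Its log2 fold change of -0.32 (SE 0.75, adjusted p in limma = 0.96) was 0.027 with median-ratio and 0.20 with quantile scaling. It was one of the most even rows, with a highest level 2.69 times its lowest, beside CCT6A at 2.55 and HSP90AA1 at 2.60. An undescribed row lies on the same Trinity gene. With that row added, HSPA8 stood at 57.7, 55.6 and 77.9 TPM in the pectoral samples, against 78.9, 69.1 and 35.2 TPM in the tail samples.

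**Figure D4:**
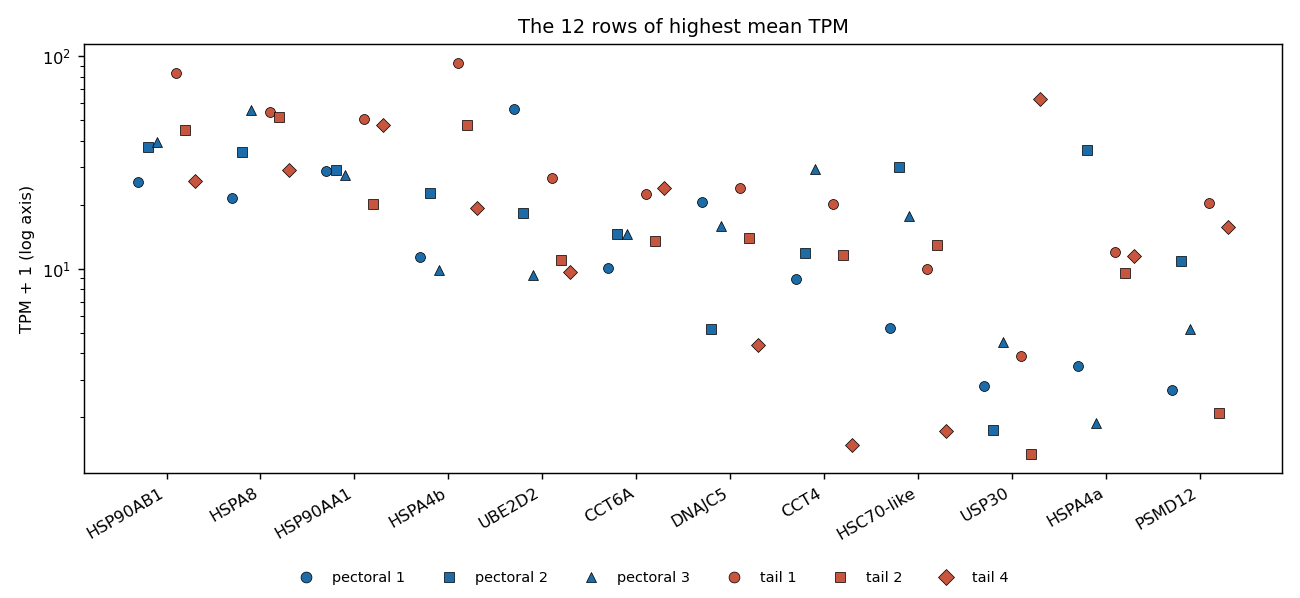
TPM + 1 on a log axis for the 12 member rows of highest mean TPM, ordered by that mean, with 1 point per library and pectoral points left of tail points. The HSP90AA1, HSPA8 and CCT6A points are close together, HSPA4b reaches 91.5 TPM in tail replicate 1, and USP30 has a single high point, 61.8 TPM, in tail replicate 4.

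HSPA4, an HSP110 protein that exchanges the nucleotide of HSP70, had a pair of rows on separate Trinity genes. HSPA4b stood at 10.4, 21.7 and 8.90 TPM in the pectoral samples, against 91.5, 46.7 and 18.3 TPM in the tail samples (log2 fold change -1.68, SE 0.83, 95% interval -3.38 to 0.012, adjusted p in limma = 0.72). Only pectoral replicate 2 and tail replicate 4 crossed. HSPA4a stood at 2.48, 35.1 and 0.870 TPM in the pectoral samples, against 10.99, 8.51 and 10.5 TPM in the tail samples, with pectoral replicate 2 the highest.

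HSPA5 (BiP), the HSP70 of the endoplasmic reticulum, stood at 3.28, 7.03 and 13.1 TPM in the pectoral samples, against 5.80, 2.40 and 0.0809 TPM in the tail samples (log2 fold change 1.43, SE 1.02, adjusted p in limma = 0.87). Without tail replicate 4 the fold was 0.71. HSC70-like, described as a heat shock cognate 70 protein, stood at 4.27, 29.1 and 16.7 TPM in the pectoral samples, against 8.997, 11.9 and 0.731 TPM in the tail samples. Its log2 fold change was 1.22 (SE 0.99, adjusted p in limma = 0.87), and 0.31 without tail replicate 4. An undescribed contig of the same Trinity gene stood at 2.75, 2.13 and 6.86 TPM in the pectoral samples, against 0.432, 0.959 and 0.546 TPM in the tail samples, higher in every pectoral library (log2 fold change 1.47, SE 0.97, adjusted p in limma = 0.84). HSPA14, a ribosome-bound HSP70, stood at 0.968, 0.454 and 0.140 TPM in the pectoral samples, against 0.0886, 1.94 and 26.2 TPM in the tail samples, with 88.0% of its TPM in tail replicate 4.

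HSPA12B had the smallest p of all members. This distant relative of HSP70 is best known in mammals and zebrafish from the lining of blood vessels, whose markers were not analysed here. It stood at 2.66, 2.14 and 2.51 TPM in the pectoral samples, against 0, 0.0165 and 0 TPM in the tail samples, so that it was near 2 to 3 TPM in each pectoral library and at or near 0 in each tail library. Its log2 fold change was 1.77 (SE 0.66, 95% interval 0.43 to 3.11), with an unadjusted p of 0.011 and an adjusted p in limma of 0.54. Over 15 alternative settings the fold ran from 0.57 with a pseudocount of 5 to 4.59 with one of 0.1. The adjusted p in limma ran from 0.15 with array weights to 0.94 with no filter. As the groups of HSPA12B did not overlap, only median-ratio or quantile scaling could have changed the sign of its fold. That the sign was kept is therefore no support for a difference. HSPA12B reached 1 TPM only in pectoral libraries, and so passed the filter through the group in which it was high. In the authors' deposited table its p of 9.48e-05 was the lowest of 7080, and it was 0.50 after Benjamini-Hochberg adjustment here over all 7080 rows. The skate reference gene table listed hspa12a and not hspa12b, so which of these relatives the row measures was not settled.

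DnaJ proteins, which bring substrates to HSP70, had 8 rows, of which 5 were tested, with a median fold of 0.075. DNAJC5, the cysteine string protein of synaptic vesicles, stood at 19.7, 4.20 and 14.8 TPM in the pectoral samples, against 23.0, 12.9 and 3.36 TPM in the tail samples. It was the highest of the group, with a log2 fold change of 0.075 (SE 0.94, adjusted p in limma = 0.998), which was -0.61 without tail replicate 4 and 0.67 without pectoral replicate 2. DNAJC8, a partner of the splicing machinery, stood at 1.79, 1.78 and 24.2 TPM in the pectoral samples, against 0.902, 1.79 and 3.85 TPM in the tail samples. Pectoral replicate 3 held 70.6% of its TPM. DNAJC2, which acts at the ribosome, stood at 4.25, 1.17 and 1.07 TPM in the pectoral samples, against 12.4, 1.28 and 2.22 TPM in the tail samples. The remaining DNAJB6, DNAJB11, DNAJC3, DNAJC10 and DNAJC24 rows were at 0 in at least 1 library each and did not separate the groups.

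The CCT chaperonin, which folds actin and tubulin, had 6 rows among the members, and a further row described as t-complex 1, a name of its subunit 1, was outside them. CCT6A stood at 9.07, 13.5 and 13.6 TPM in the pectoral samples, against 21.6, 12.5 and 23.1 TPM in the tail samples, or 12.1 ± 2.58 TPM (pectoral) against 19.05 ± 5.74 TPM (tail), SD with n = 3 each (log2 fold change -0.59, SE 0.85, adjusted p in limma = 0.91). CCT4 stood at 7.96, 10.9 and 28.5 TPM in the pectoral samples, against 19.2, 10.7 and 0.478 TPM in the tail samples. CCT3 stood at 5.04, 9.46 and 10.1 TPM in the pectoral samples, against 4.50, 12.2 and 4.90 TPM in the tail samples. CCT6A was therefore at its highest in tail replicate 4, the library in which CCT4 was at its lowest.

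Of the 5 tested CCT subunits, 4 had positive folds and CCT6A a negative one, with a median of 0.49 beside -0.18 over all tested rows. With t-complex 1, whose fold was -1.01, added after its values were seen, 4 of 6 folds were positive and the median was 0.36. The positive fold of CCT4, 1.06 (SE 0.998, adjusted p in limma = 0.89), was -0.067 without tail replicate 4. CCT5 and CCT8 were lowest in tail replicate 4 as well, at 0.150 and 1.33 TPM. The 6 member rows summed to 48.1 ± 13.9 TPM in the pectoral samples, against 45.8 ± 16.4 TPM in the tail samples. With t-complex 1 the sums were 55.2 ± 12.1 TPM in the pectoral samples, against 63.9 ± 11.6 TPM in the tail samples (SD, n = 3 each), and the groups overlapped either way. The mitochondrial chaperonin HSPD1 stood at 1.12, 5.60 and 5.82 TPM in the pectoral samples, against 6.96, 5.80 and 7.04 TPM in the tail samples, where only pectoral replicate 1 was far from the rest. Its co-chaperonin HSPE1 stood at 7.42, 9.04 and 2.45 TPM in the pectoral samples, against 7.52, 3.71 and 3.89 TPM in the tail samples.

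The prolyl isomerases, which turn proline bonds during folding, held a pair of rows that separated the groups in opposite directions. PIN4, a parvulin, stood at 3.06, 1.58 and 11.2 TPM in the pectoral samples, against 0.739, 0.214 and 0 TPM in the tail samples (log2 fold change 1.97, SE 0.96, unadjusted p = 0.047, adjusted p in limma = 0.69). PPID (cyclophilin 40), which works with HSP90, stood at 0.466, 0.314 and 0.766 TPM in the pectoral samples, against 12.5, 2.62 and 1.41 TPM in the tail samples (log2 fold change -1.71, SE 0.99, adjusted p in limma = 0.82). PIN4 was higher and PPID lower in every pectoral library. Each passed the filter only through the group in which it was high, since PIN4 was under 1 TPM in every tail and PPID in every pectoral library. Tail replicate 1 held 69.2% of the TPM of PPID, and the fold was -0.98 without it. PPIH was low, at 3.50, 0 and 0 TPM in the pectoral samples, against 0.239, 0.762 and 0.283 TPM in the tail samples, and was not tested.

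The share of tested members whose groups did not overlap was near that of the whole table. The 3 pectoral libraries lay above all 3 tail libraries in HSPA12B and PIN4, or 2 of 61 members, where 4.18% of all tested rows did so. They lay below in PSMA8, PSMB1, PSMC1b, PPID and PELI2, or 5 of 61, where 7.6% did so. Both directions together gave 11.5% of the members and 11.8% of all tested rows. Of these 7 members, HSPA12B, PIN4, PPID and PSMC1b had passed the filter only through the group in which they were high. The count of 7 is therefore no support for a difference. Whether or not the groups overlapped, 6.56% of the tested members and 3.36% of all tested rows had passed in this way. That share was not computed over all non-overlapping rows of the table. Summed with PSMC1a of the same Trinity gene, PSMC1b overlapped. After median-ratio scaling PSMA8, PSMC1b and PELI2 overlapped, while HSPA12B, PIN4, PPID, PSMB1 and the untested PSMC6 stayed apart. With that scaling the pectoral libraries lay above in 4 tested members and below in 2, where 7.52% and 5.12% of all tested rows did so. HSPA5 and UBE2D4, which overlapped as deposited, were among those in which they lay above. By the p-values of the authors' deposited table, 4 of 94 members had a p under 0.05, where 3.09% of all rows did. They were HSPA12B, PSMB1 (0.00298), PSMA8 (0.0117) and PSMC6 (0.0468).

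**Figure D5:**
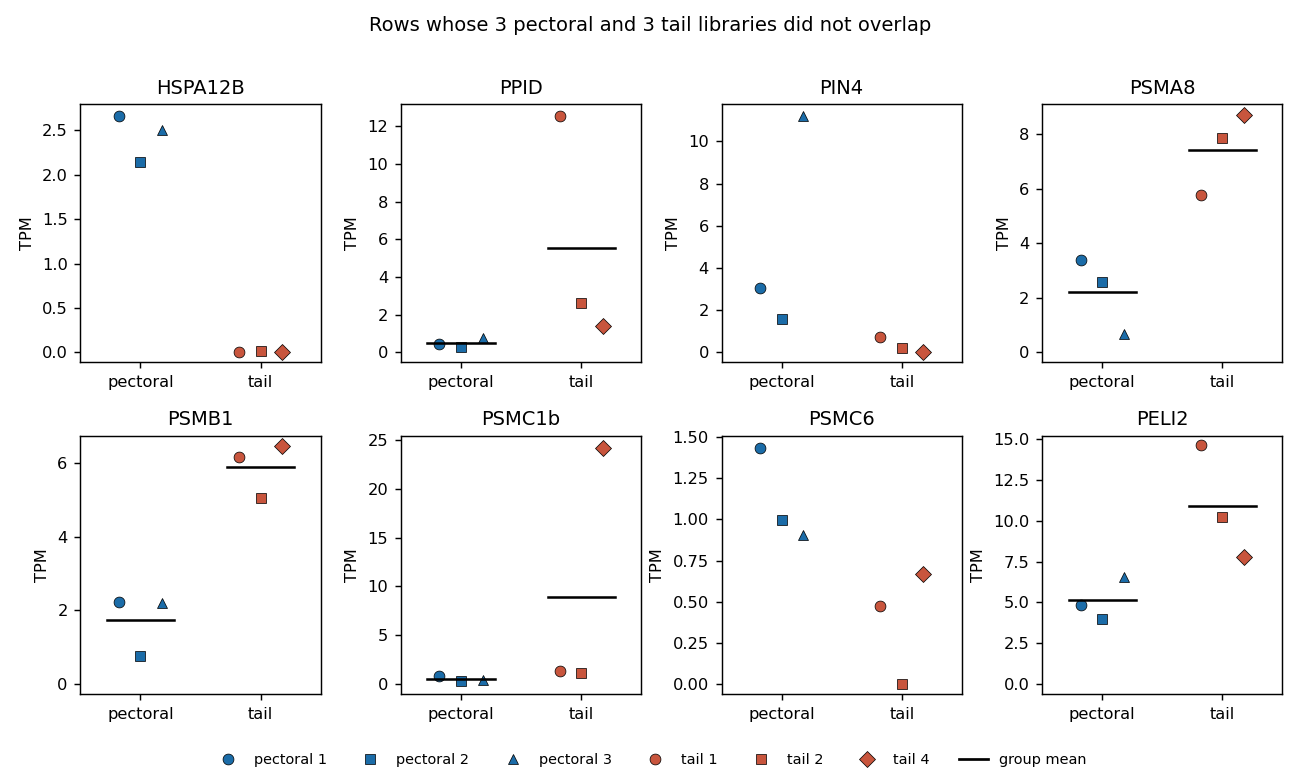
TPM of the 8 rows whose pectoral and tail libraries did not overlap, with 1 point per library, pectoral left of tail, and a line at the group mean where no library was listed at 0. HSPA12B, PIN4 and PSMC6 are higher in all 3 pectoral libraries; the high points of PPID (12.5 TPM) and PSMC1b (24.2 TPM) are single tail libraries.

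Some rows owed most of their level to 1 library. In 14 of the 61 tested members, or 23.0%, a single library held over 50% of the TPM summed over the 6 libraries, where this was so in 35.6% of all tested rows. The most even row by this measure was HSPD1, with 21.8% in its highest library. UBE2Ia had 62.7% in tail replicate 2. The 33 rows that were not tested were 20 of the ubiquitin system, 6 of the proteasome and 7 chaperones. Their mean levels ran from 0.176 to 4.97 TPM with a median of 0.797 TPM, and 30 of them were listed at 0 in at least 1 library. In all, 10 of the 94 members lay in pairs on 5 shared Trinity genes, so the 94 rows stand for 89 such genes.

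Other genes of protein quality control were sought by words in the descriptions, among them cullin, F-box, ring finger, prefoldin, protein disulfide, COP9 and autophagy. The words also matched t-complex 11, testis-specific-like 1, which its name alone brought in and which was not tested. There were 30 matching rows, of which 14 were tested and 0 passed in limma, where 0.08% of all tested rows did. At an unadjusted p under 0.05 in limma, 0 were higher in pectoral and 1 higher in tail libraries, where 3.09% and 3.94% of all tested rows were. Their folds were positive in 9 and negative in 5, with a median of 0.36. Over all tested rows 43.5% of folds were positive and the median was -0.18. The row with an unadjusted p under 0.05 was prefoldin 5, part of a complex that hands actin and tubulin to CCT, at 18.2, 21.2 and 29.1 TPM in the pectoral samples, against 198, 116 and 27.5 TPM in the tail samples (log2 fold change -1.90, SE 0.78, adjusted p in limma = 0.58). Tail replicates 1 and 2 were far above the pectoral libraries and tail replicate 4 lay among them. Valosin containing protein, an ATPase that extracts ubiquitinated proteins, stood at 6.28, 23.3 and 0.489 TPM in the pectoral samples, against 18.3, 3.31 and 2.72 TPM in the tail samples. The t-complex 1 row stood at 10.5, 3.13 and 7.54 TPM in the pectoral samples, against 11.03, 6.21 and 37.1 TPM in the tail samples (log2 fold change -1.01, SE 0.94, adjusted p in limma = 0.89). Stress-induced phosphoprotein 1, which links HSP70 and HSP90, stood at 7.30, 0.122 and 0.193 TPM in the pectoral samples, against 13.97, 13.2 and 0.0262 TPM in the tail samples, so both groups held high and low libraries.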

How the data were processed

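The authors deposited TPM in 1 table whose 6 value columns are the libraries, per the file headers, beside a p-value of their own. Trimmomatic 0.33, Salmon 0.8.2 and edgeR 3.18.1 are listed in the submitters' processing notes, without their roles. Libraries were stranded TruSeq mRNA, per the labels' protocols. Of 7081 rows 1 exact repeat was removed. Read numbers cannot be had from TPM, so values are given without a counting interval. The deposited rows summed to 50000 to 63021 TPM in pectoral and 48449 to 74224 TPM in tail libraries.

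Descriptions were matched to symbols by hand. Such a symbol stands for the best described protein, not for a checked ortholog, and 63 of 94 symbols were in the RefSeq skate gene table. Where 2 rows shared a symbol the zebrafish-style paralog letter was kept. The rule leaves out 1 row described as a ribosomal protein. Members, lists and settings were chosen with earlier results of these data known.

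Rows were tested with limma 3.58.1 in R 4.3.3 (empirical Bayes with a mean-variance trend, two-sided) on log2(TPM + 1), over rows that reached 1 TPM in 3 or more libraries, with Benjamini-Hochberg adjustment over all tested rows. The fit was also run on simulated rows with normal noise, which lack the zeros and uneven libraries of these data. That run does not measure which differences could be missed here. In each member group the 3 tested rows of highest mean TPM were named, and over all members the 5 rows in each direction with the smallest p, in all 35 rows. Other rows named were chosen after their values were seen. Motor neuron markers had an exact permutation test. Alternatives were pseudocounts of 0.1 and 5, no filter, median-ratio and quantile scaling, no variance trend, array weights, a replicate block and leaving out libraries.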

Additional observations from a re-analysis of the deposited data

How the results depend on the processing

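Under all 15 alternatives 0 member rows passed, and 16 of the 35 named rows kept the sign of their fold. HSPA12B, PIN4, HSPA4b, PPID, PSMB1, PSMA8 and PELI2 were among them. Except for HSPA4b, the groups of these rows did not overlap as deposited. Only median-ratio or quantile scaling could therefore have changed their sign, and the kept sign is no support for a difference. Among all tested rows 2 passed higher in pectoral and 1 higher in tail libraries. These counts were 1 and 0 with a pseudocount of 0.1, median-ratio scaling, no variance trend or the replicate block, 1 and 1 with a pseudocount of 5, 3 and 0 with quantile scaling, 11 and 15 with array weights, 0 and 0 when pectoral replicate 1 and tail replicate 4 were both left out, and 1 to 3 and 0 to 2 with 1 library left out. Replicate numbers 1 and 2 are shared by the groups, and the labels do not say whether they pair the libraries. Pectoral replicate 3 and tail replicate 4 have no library of the same number in the other group. With the replicate block they therefore add nothing to a fold, which rests on replicates 1 and 2 alone. The deviations of same-numbered libraries from their group means correlated at -0.03 and -0.003. So few pairs cannot decide whether the libraries were paired. The cause of the changes below was not tested.

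The median fold of the chaperonins was 0.70 with quantile scaling and -0.067 to 0.64 with 1 library left out, and that of the ubiquitin-like rows -1.22 with array weights. With the replicate block the medians were -0.71 for DnaJ proteins, -1.18 for E1 and E2 enzymes and 1.19 for deubiquitinases. The DnaJ median was -0.61 to 0.62 with 1 library left out and -0.92 without both libraries.

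Log2 folds changed sign for UBE2H with a pseudocount of 5 (-0.11), for HSPA8 (0.027), PSMD4 (0.027) and SUMO3 (0.034) with median-ratio scaling, and for HSP90AB1 (0.019), HSPA8 (0.20), HSP90AA1 (0.10) and PSMC4 (0.17) with quantile scaling. With array weights they did so for DNAJC2 (0.097), CCT3 (-0.38), HSP90AA1 (0.11), PSMD12 (0.060), PSMC4 (0.54), UBE2H (-0.27), USP30 (0.068) and UBLCP1 (-0.26). With the replicate block the log2 folds were -0.82 for DNAJC5, -0.57 for CCT4, -0.10 for CCT3, 0.068 for PSMD4, 0.60 for PSMC4, -1.18 for UBE2H and -0.14 for UBLCP1. Without both libraries they were -1.01 for DNAJC5, 0.21 for PSMD12, 0.49 for PSMD4, -0.40 for UBE2D2, -0.72 for UBE2H, 0.29 for USP30 and 0.077 for ARIH1-like. With 1 library left out the sign also varied for DNAJC5 (-0.61 to 0.67), HSPA8 (-0.66 to 0.033), PSMD4 (-1.29 to 0.43), UBE2D2 (-0.12 to 1.18), SUMO3 (-0.88 to 0.28), SUMO2 (-0.96 to 0.028), PSMA4 (-0.43 to 0.74), DNAJC8 (-0.084 to 1.51), DNAJC2 (-1.20 to 0.082), PSMC4 (-1.22 to 0.19), CCT4 (-0.067 to 1.82), UBE2H (-0.997 to 1.33) and USP30 (-2.48 to 0.29). Depth is unknown, so what it limits could not be stated.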
